A study of Mus musculus with 8 samples.

Results

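The transcripts described here encode the 4 kinases that phosphorylate the alpha subunit of translation initiation factor eIF2 (Eif2ak1, Eif2ak2, Eif2ak3 and Eif2ak4), the 2 subunits that direct protein phosphatase 1 back to it (Ppp1r15a and Ppp1r15b), the 3 eIF4E-binding proteins (Eif4ebp1, Eif4ebp2 and Eif4ebp3), and Ddit4. They were chosen by symbol as the regulatory enzymes and inhibitors of translation initiation, and they make up 10 of the 35275 genes in the deposited tables. Liver RNA was sequenced from 4 Pcx L-/- mice, in which Albumin-Cre deleted a floxed exon 10 of pyruvate carboxylase in hepatocytes, and from 4 littermate controls. The controls carried the floxed alleles without the deletion (Pcx f/f) and are called WT in the sample labels. All mice were C57BL/6 males on standard chow, were 9 weeks old and had fasted for 24 h. Other liver cells keep Pcx in this model, and the libraries were made from whole liver tissue, 1 per mouse.

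When cells are stressed, an eIF2alpha kinase phosphorylates eIF2, eIF2B can no longer recycle it, and translation of most mRNAs slows while that of a few, among them Atf4, increases. This is the integrated stress response: HRI (Eif2ak1) senses heme shortage and mitochondrial stress, PKR (Eif2ak2) double-stranded RNA, PERK (Eif2ak3) unfolded protein in the endoplasmic reticulum and GCN2 (Eif2ak4) uncharged transfer RNA. GADD34 (Ppp1r15a) is the inducible and CReP (Ppp1r15b) the constitutive phosphatase subunit that ends the response. The other arm is the cap-binding step, where 4E-BPs hold eIF4E away from eIF4G until mTORC1 phosphorylates them, and where Ddit4 (REDD1) restrains mTORC1 through the TSC complex in fasting, hypoxia and glucocorticoid excess. These proteins are set largely by phosphorylation or protein turnover, which RNA counts do not show.

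The targeted gene was tested in every library first. Pcx stood at 14371 to 22059 normalized counts in controls and at 556 to 758 in Pcx L-/- mice, or 3.60% of the control mean. Library totals ran from 12016242 to 20023108 reads. Normalized counts are reads divided by the effective library size (edgeR's TMM method), brought to a common size. Pcx L-/- replicate 1 stood apart: its red blood cell markers summed to 69339 normalized counts, against 4749 to 16720 in controls, and its summed hepatocyte markers were the highest of the Pcx L-/- mice. Tests of the 10 genes and counts over gene lists are therefore given with and without it. The 8 hepatocyte markers were all detected and summed to 1575490 to 1918250 in controls and 1012340 to 1462580 in Pcx L-/- mice, with 4 of the 8 lower (6 without replicate 1), and their part in the results below was not tested. Such a difference in bulk tissue cannot tell fewer cells of a type from less RNA per cell. Of the other marker lists, 1 of 8 macrophage genes was higher, and 1 of 8 stellate and 1 of 6 cholangiocyte genes were lower. The sums of these lists and of the endothelial, red blood cell, neutrophil and lymphocyte lists overlapped between genotypes, and the neutrophil marker Ly6g was at 0.

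Of the 10 genes, 6 passed the test (edgeR's quasi-likelihood test, Benjamini-Hochberg adjusted p under 0.05 over 13168 genes). Kinases, phosphatase subunits and 4E-BPs each held 1 gene that rose, and Eif2ak3, Ppp1r15a and Eif4ebp1 were higher in Pcx L-/- liver, while Eif2ak2, Eif2ak4 and Eif4ebp2 were lower. Over all genes tested 27.6% were called, 14.1% higher and 13.5% lower, so that 6 of 10 has to be read against a table in which more than 1 gene in 4 moved. Without Pcx L-/- replicate 1 the calls were again 3 higher and 3 lower, against 16.7% and 17.8% of all genes (34.5% in either direction), with Ppp1r15b in the place of Eif2ak4. The 13168 genes had a median log2 fold change of -0.01 under TMM and of 0.28 under scaling to library size alone. With that second scaling the same 3 genes were higher and none of the 10 was lower (edgeR, against 29.7% and 6.61% of all genes, or 36.3% in either direction), with 0 lower at an unadjusted p under 0.05 as well. DESeq2, with its own scaling, called 3 higher and 4 lower, Ppp1r15b among the latter, against 14.8% and 15.8% of all genes (30.6% in either direction).

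**Figure D1:**
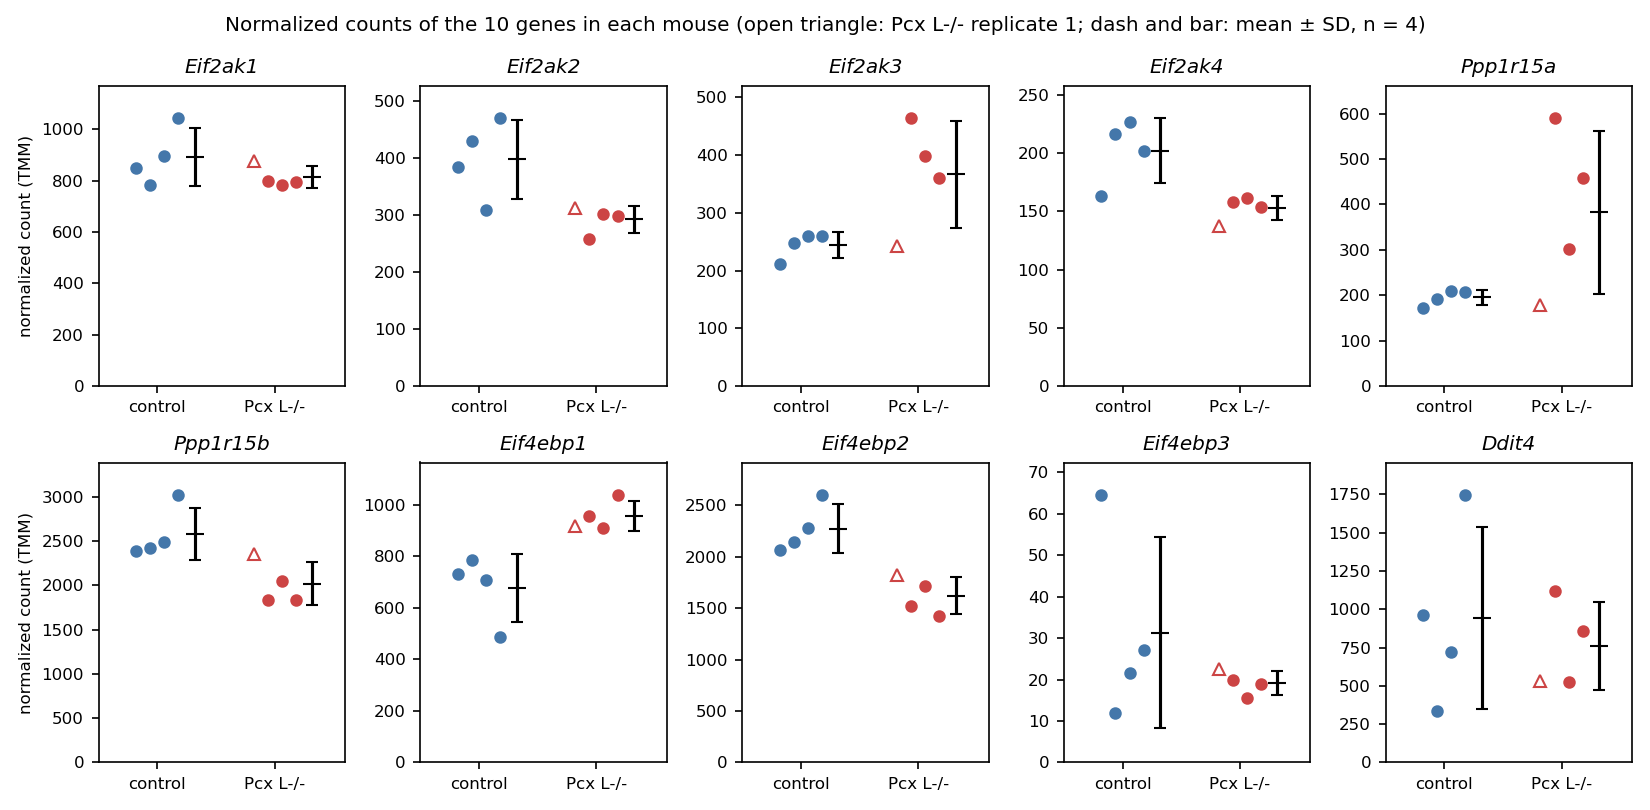
Normalized counts (vertical axes, TMM scale, each from 0) of the 10 genes in each of 4 control and 4 Pcx L-/- mice, 1 point per mouse, with the mean and SD of each genotype beside the points. In Eif2ak3 and Ppp1r15a the open triangle of Pcx L-/- replicate 1 lies within the control points while the other 3 Pcx L-/- mice lie above them, whereas Eif4ebp1 and Eif4ebp2 separate in every mouse.

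Levels per length place these genes on very different floors. In control liver the mean FPKM (fragments per kilobase of gene, scaled to library size) was highest for Eif4ebp2 at 67.7 ± 3.48 (SD, n = 4), followed by Eif4ebp1 at 37.2 ± 8.88, Ddit4 at 29.1 ± 16.7 and Ppp1r15b at 24.5 ± 1.37. Eif2ak1 followed at 10.9 ± 0.761. The remaining genes, Eif2ak2, Ppp1r15a, Eif2ak3, Eif4ebp3 and Eif2ak4, had control means of 4.91, 3.70, 2.89, 2.25 and 2.04 FPKM. Neighbours in this order whose control mice overlapped were Eif4ebp1 with Ddit4, Ddit4 with Ppp1r15b, Eif2ak2 with Ppp1r15a, Eif2ak3 with Eif4ebp3, and Eif4ebp3 with Eif2ak4. The abundant genes of each role were thus Eif2ak1 among kinases, Ppp1r15b among phosphatase subunits and Eif4ebp2 among 4E-BPs, and none of the 3 genes that rose was the most abundant of its role. In Pcx L-/- liver Eif4ebp1 reached 63.6 ± 7.43 FPKM beside 58.9 ± 4.95 for Eif4ebp2, with overlapping mice.

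The promoters of Ppp1r15a and Eif2ak3 are shown because these 2 genes rose in the same 3 mice. The windows are the 250 bases before the RefSeq start site (GRCm38.p6), Ppp1r15a at chr7:45526269-45526518 on the minus strand and Eif2ak3 at chr6:70844265-70844514 on the plus strand, written 5′ to 3′. Capitals mark a match to the cAMP response element (TGACGTCA) and one to the core of the interferon-stimulated response element (GAAA, any 2 bases, GAAA).
Ppp1r15a: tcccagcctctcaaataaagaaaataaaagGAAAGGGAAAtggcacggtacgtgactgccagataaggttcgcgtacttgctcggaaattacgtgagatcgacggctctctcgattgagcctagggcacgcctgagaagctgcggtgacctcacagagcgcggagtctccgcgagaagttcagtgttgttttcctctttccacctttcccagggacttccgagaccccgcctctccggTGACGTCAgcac
Eif2ak3: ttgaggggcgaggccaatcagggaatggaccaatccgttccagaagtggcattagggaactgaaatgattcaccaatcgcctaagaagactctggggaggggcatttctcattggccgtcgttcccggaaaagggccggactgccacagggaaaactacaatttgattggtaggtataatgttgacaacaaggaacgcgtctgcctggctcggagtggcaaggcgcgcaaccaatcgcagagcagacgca
The Ppp1r15a window held TGACGTCA starting 12 bases before the start site, which 1.55% of 32851 RefSeq promoter windows of this length hold on either strand, and the interferon core starting 220 bases before it, which 2.98% hold. It also held ACGTG, the hypoxia response element core, 2 times, at 201 and 160 bases before the start, a string found in 16.6% of windows. The Eif2ak3 window held none of the 6 strings searched on both strands, the others being TGATGNAA (ATF4 and C/EBP composite, 3.45% of windows), TGACGTGG (unfolded protein response element core, 0.563%) and ACANNNTGT (glucocorticoid response element core, 5.84%). ACGTG overlaps TGACGTGG where the latter occurs. Promoter windows were searched for 7 of the 10 genes. Those of Eif4ebp1, Eif4ebp3 and Ppp1r15b were not searched, so nothing is said of their promoters. Besides Ppp1r15a, Ddit4 and Eif4ebp2 each held 1 ACGTG, at 187 and 182 bases before the start, and Eif2ak1, Eif2ak2 and Eif2ak4 held none of the strings. The bases after the Eif4ebp2 window did not match the start of an annotated transcript, so its distance holds only for the RefSeq start site. The same was true of the Eif2ak4 window at chr2:118388367-118388616, but not of its further window at chr2:118388862-118389111. A match describes letters only, and no match says nothing of a factor.

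Among the kinase transcripts, that of PERK (Eif2ak3, ENSMUSG00000031668, GRCm38 chromosome 6, 70844515 to 70905245) was the one that rose. Its normalized counts were 212, 247, 260.1 and 259.7 in control replicates 1 to 4 and 243, 464, 398 and 361 in Pcx L-/- replicates 1 to 4. Replicate 1 lay within the control range and the other 3 Pcx L-/- mice above every control. Eif2ak3 had a log2 fold change of 0.59 (SE 0.18, adjusted p = 0.0305 by edgeR's quasi-likelihood test), and without replicate 1 it was 0.74 (adjusted p = 0.00115). Control replicates 1, 2 and 3 each carried the call, which was lost when any 1 of them was left out (adjusted p = 0.0895, 0.0582 and 0.0583), and so did Pcx L-/- replicates 2, 3 and 4 (0.0978, 0.0809 and 0.0706). The share of Eif2ak3 in the summed FPKM of the 4 kinases went from 13.9% ± 1.16 to 22.1% ± 5.10 (SD, n = 4), with replicate 1 at 15.2% inside the control range of 12.9% to 15.2%.

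Transcripts of PKR and GCN2 were lower under TMM. Eif2ak2 (ENSMUSG00000024079, chromosome 17, 78852564 to 78882573), itself an interferon-induced gene, stood at 384, 429, 308 and 470.1 normalized counts in controls and 312, 258, 303 and 298 in Pcx L-/- mice, with control replicate 3 between Pcx L-/- replicates 1 and 3. Its locus overlaps another annotated gene, Gm26637. Eif2ak2 had a log2 fold change of -0.44 (SE 0.14, adjusted p = 0.0337 by edgeR) and -0.47 without Pcx L-/- replicate 1 (adjusted p = 0.0281). Eif2ak4 (ENSMUSG00000005102, chromosome 2, 118388618 to 118475234) stood at 163, 217, 227 and 202 in controls and 138, 158, 162 and 154 in Pcx L-/- mice. Every Pcx L-/- mouse was below every control, as in 12.5% of all genes, the nearest pair being 162 and 163. By FPKM the Eif2ak4 groups overlapped, at 1.69 to 2.32 in controls and 1.48 to 2.08 in Pcx L-/- mice. The log2 fold change of -0.40 (SE 0.14) only just passed (adjusted p = 0.0491 by edgeR). Without Pcx L-/- replicate 1 it was -0.35 and did not pass (adjusted p = 0.0788 by edgeR). Both calls depended on single libraries. Eif2ak2 kept its call without control replicate 3 or Pcx L-/- replicate 1 but missed the threshold without each of the other 6 mice (adjusted p from 0.0637 to 0.101), and Eif2ak4 kept it without control replicate 1 but not without each of the other 7 (0.0635 to 0.133). Scaled to library size alone the log2 fold changes were -0.15 and -0.11 (adjusted p = 0.415 and 0.644), which relative to the median of all genes under that scaling are -0.43 and -0.39.

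HRI (Eif2ak1, ENSMUSG00000029613, chromosome 5, 143817788 to 143904251), the most abundant kinase transcript in both genotypes at 10.9 and 12.2 FPKM, was not called. Normalized counts were 848, 782, 895 and 1044 in controls and 876, 799, 784 and 796 in Pcx L-/- mice, which overlapped. The log2 fold change was -0.13 (SE 0.11, adjusted p = 0.403 by edgeR) and -0.17 without Pcx L-/- replicate 1 (adjusted p = 0.279), and its sign turned to 0.16 under library size alone. Eif2ak1 overlaps Ankrd61 and Aimp2 on the opposite strand, and as no source here says how the counting used strand, reads of these genes could not be told apart. Comparing kinases within a library removes the scaling. The log2 ratio of Eif2ak3 to Eif2ak4 reads ran from 0.19 to 0.38 in controls and from 0.81 to 1.55 in Pcx L-/- mice, replicate 1 being the lowest of them and still above every control. The ratio was higher by 0.94 on the log2 scale (exact two-sided permutation test, p = 0.0286, the smallest that 4 mice against 4 can give, and 0.114 adjusted over the 8 pairs compared). For normalized counts of single genes, groups without overlap were seen in 27.6% of all genes tested. No such share was computed for ratios of 2 genes, here or below.

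Of the phosphatase subunits, the inducible Ppp1r15a (ENSMUSG00000040435, chromosome 7, 45522916 to 45526268) rose by the largest fold of the 10 genes under TMM. It stood at 172, 191, 209.6 and 207 normalized counts in controls and at 179, 590.0, 301 and 458 in Pcx L-/- mice. As for Eif2ak3, replicate 1 lay among the controls and the other 3 mice above them all. The log2 fold change was 0.98 (SE 0.29, adjusted p = 0.0295 by edgeR) and 1.21 without replicate 1 (adjusted p = 8.99e-04). The call was lost with any 1 control left out (adjusted p from 0.0507 to 0.0796), without Pcx L-/- replicate 2 or 4 (log2 fold change 0.69 and 0.88, adjusted p = 0.0914 and 0.0866), and with the series of mouse numbers as a term (0.73, 0.0602). The 3' end of Ppp1r15a meets Tulp2 on the opposite strand.

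The constitutive subunit Ppp1r15b (ENSMUSG00000046062, chromosome 1, 133131143 to 133139783) had 2383, 2424, 2483 and 3023 normalized counts in controls and 2354, 1836, 2044 and 1838 in Pcx L-/- mice. All 4 Pcx L-/- mice were below all controls, as were 12.5% of all genes. By FPKM the Ppp1r15b groups overlapped, at 23.4 to 26.5 in controls and 22.0 to 24.8 in Pcx L-/- mice. The log2 fold change of -0.35 (SE 0.13) missed the threshold (adjusted p = 0.0575 by edgeR). It passed without Pcx L-/- replicate 1 (-0.44, adjusted p = 0.0129) and by DESeq2 (-0.36, adjusted p = 0.0263). The share of Ppp1r15a in the summed FPKM of the 2 subunits was 12.0% to 14.4% in controls and 13.2%, 39.0%, 22.7% and 33.2% in Pcx L-/- replicates 1 to 4. The log2 ratio of Ppp1r15a to Ppp1r15b reads differed by 1.19 between genotypes (exact two-sided permutation test, p = 0.0857, adjusted 0.229), replicate 1 being at -3.71 within the control range of -3.86 to -3.56.

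Of the 4E-BPs, Eif4ebp1 rose and Eif4ebp2 fell, each without overlap of normalized counts between genotypes. Eif4ebp1 (ENSMUSG00000031490, chromosome 8, 27260329 to 27276674) stood at 731, 786, 708 and 485 normalized counts in controls and at 920.0, 956, 909 and 1039.9 in Pcx L-/- mice. Control replicate 4 was the lowest and no Pcx L-/- mouse overlapped the controls, a placing above all controls that 15.1% of all genes shared. The log2 fold change was 0.49 (SE 0.14, adjusted p = 0.0240 by edgeR) and 0.51 without Pcx L-/- replicate 1 (adjusted p = 0.0239), and the call rested on control replicate 3 and Pcx L-/- replicates 2 and 4, without each of which it was lost (0.0511, 0.0566 and 0.0760). Eif4ebp2 (ENSMUSG00000020091, chromosome 10, 61428491 to 61452661) stood at 2065, 2142, 2281 and 2603 in controls and at 1822, 1524, 1718 and 1424 in Pcx L-/- mice. Here too the normalized counts did not overlap, Pcx L-/- replicate 1 being nearest to the controls. A placing below all controls was shared by 12.5% of all genes. By FPKM the Eif4ebp2 groups overlapped, at 63.4 to 71.5 in controls and 53.3 to 65.4 in Pcx L-/- mice. Eif4ebp2 had a log2 fold change of -0.49 (SE 0.12, adjusted p = 0.0129 by edgeR) and -0.55 without Pcx L-/- replicate 1 (adjusted p = 0.00423), and the call was lost without Pcx L-/- replicate 4 (-0.43, 0.0526) and under library size alone (-0.20, 0.165). Eif4ebp3 (ENSMUSG00000090264, chromosome 18, 36664060 to 36665917) had only 11 to 71 reads per library, and its log2 fold change of -0.73 (SE 0.44, adjusted p = 0.250 by edgeR) was -0.045 without control replicate 1, the mouse with 71 reads, and -0.82 without Pcx L-/- replicate 1 (adjusted p = 0.942 and 0.236). Eif4ebp3 also lies within an annotated readthrough gene on the same strand, with which it could share reads.

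Reads of Eif4ebp1 relative to Eif4ebp2 do not depend on library scaling. Their log2 ratio was -2.42 to -1.45 in controls and -0.99 to -0.45 in Pcx L-/- mice, a difference of 1.01 with no overlap (exact two-sided permutation test, p = 0.0286, adjusted 0.114). By summed FPKM, Eif4ebp1 made up 34.4% ± 6.58 of the 4E-BP transcripts in controls and 51.1% ± 4.13 in Pcx L-/- liver, while Eif4ebp2 went from 63.5% ± 6.85 to 47.5% ± 4.14 (SD, n = 4). Their binding partner Eif4e rose too, from 12.8 ± 1.13 to 21.2 ± 2.88 FPKM (log2 fold change 0.44 on TMM counts, SE 0.09, adjusted p = 0.00655 by edgeR). The 4E-BP sum itself was 107 ± 6.48 FPKM in controls and 124 ± 7.25 FPKM in Pcx L-/- mice. Divided by Eif4e, this sum was 8.41 ± 0.327 in controls and 5.92 ± 0.550 in Pcx L-/- mice by FPKM. Pcx L-/- replicate 1, at 6.72, was nearest to the lowest control at 7.98. The log2 ratio of Eif4ebp1 to Eif4e reads differed by 0.08 (exact permutation p = 0.743, adjusted 0.849) and its groups overlapped. Those of Eif4ebp3 to Eif4e (-0.89, p = 0.143, adjusted 0.274), Eif4ebp1 to Eif4ebp3 (0.97, p = 0.171, adjusted 0.274) and Eif4ebp3 to Eif4ebp2 (0.04, p = 1, adjusted 1) overlapped as well by the same exact test.

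**Figure D2:**
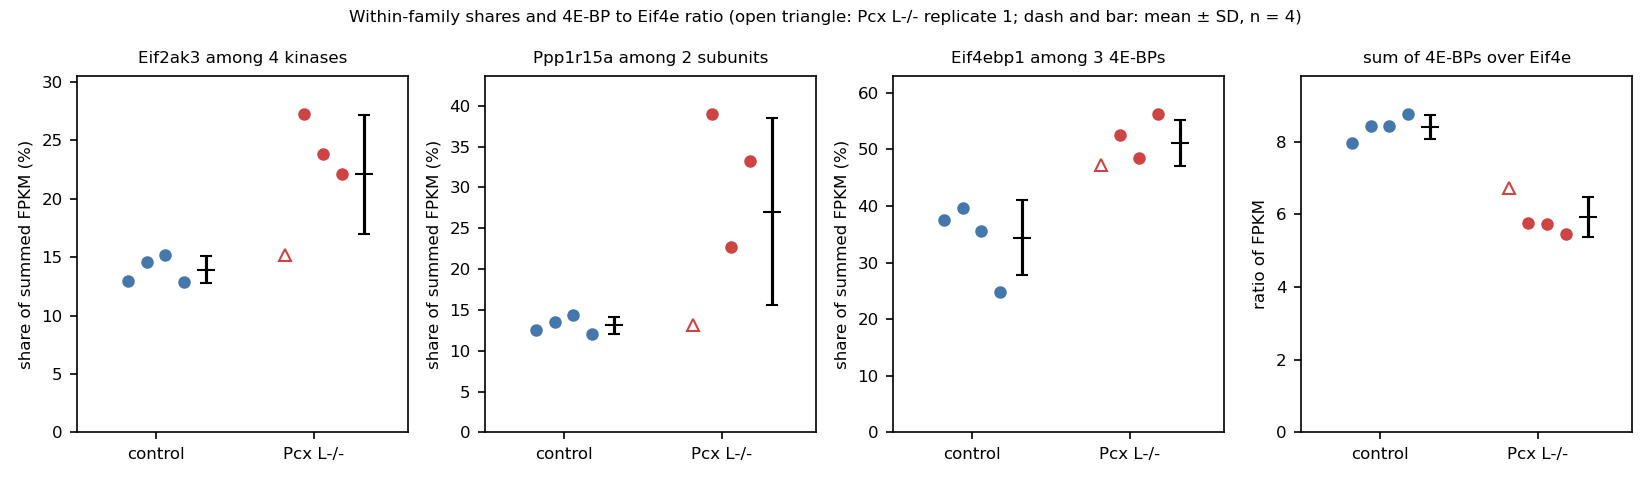
Share of summed FPKM (%, first 3 panels) taken by Eif2ak3, Ppp1r15a and Eif4ebp1 in their roles, and the ratio of summed 4E-BP to Eif4e FPKM (last panel), 1 point per mouse with mean and SD. Eif4ebp1 runs from 24.9% to 39.7% in controls and from 47.2% to 56.3% in Pcx L-/- mice without overlap, whereas the Ppp1r15a and Eif2ak3 shares of Pcx L-/- replicate 1 (open triangle) lie in the control range.

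Ddit4 (ENSMUSG00000020108, chromosome 10, 59949669 to 59951834) varied more among mice of 1 genotype than between genotypes. It stood at 959.5, 338, 719 and 1748 normalized counts in controls and 533, 1122, 528 and 858 in Pcx L-/- mice. All Pcx L-/- values lay between the lowest and the highest control. The log2 fold change was -0.30 (SE 0.41, adjusted p = 0.629 by edgeR) and -0.16 without Pcx L-/- replicate 1 (adjusted p = 0.810), was 0.038 under library size alone and turned to 0.17 without control replicate 4, so that no direction can be given. Ddit4 relative to Tsc2, the subunit through which it acts, differed by 0.28 on the log2 scale (exact two-sided permutation test, p = 0.543, adjusted 0.724).

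**Figure D3:**
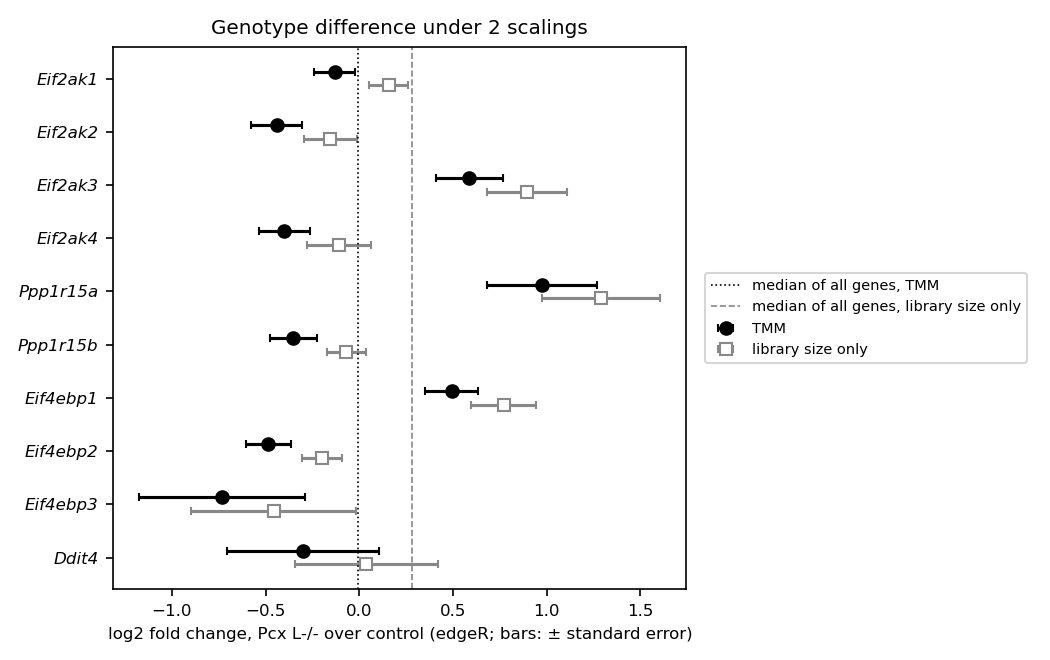
Log2 fold change of Pcx L-/- over control (horizontal axis) with its standard error for each of the 10 genes under TMM (filled circles) and under library size alone (open squares), beside the median of all genes under each. Eif2ak3, Ppp1r15a and Eif4ebp1 lie right of 0 under both, Eif2ak1 (-0.13 and 0.16) and Ddit4 (-0.30 and 0.038) change sign, and the other 5 lie left of 0 under both and closer to it under library size.

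Mouse numbers in the labels fall into 2 runs, and what the runs stand for is not stated. In the higher run all Pcx L-/- mice have lower numbers than the controls, so genotype and number cannot be told apart there. Within the higher run, with 2 controls and Pcx L-/- replicates 2 to 4, log2 fold changes were 1.11 for Ppp1r15a (adjusted p = 0.00871 by edgeR), 0.65 for Eif2ak3 (0.0112), 0.69 for Eif4ebp1 (0.0113), -0.65 for Eif4ebp2 (0.00546) and -0.53 for Ppp1r15b (0.0153). These 3 higher and 2 lower genes compare with 14% and 15.8% of all genes in that fit (29.8% in either direction). Eif2ak2 at -0.43 and Eif2ak4 at -0.44 did not pass there (adjusted p = 0.106 and 0.0553 by edgeR). The lower run holds 2 controls and only Pcx L-/- replicate 1 and allows no test. Its differences were -0.01 for Ppp1r15a, 0.08 for Eif2ak3, 0.28 for Eif4ebp1, -0.21 for Eif4ebp2, -0.03 for Ppp1r15b, -0.38 for Eif2ak2 and -0.45 for Eif2ak4 on the log2 scale. That 1 mouse and its run cannot be told apart.

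The factors on which these regulators act were also counted, beside 14.1% of all genes called higher and 13.5% called lower. With library size alone these shares were 29.7% and 6.61%, and without Pcx L-/- replicate 1 they were 16.7% and 17.8%. Of the 9 eIF2 and eIF2B subunits, 6 were higher and none lower (edgeR, 0 lower also at an unadjusted p under 0.05 and by DESeq2), with a median log2 fold change of 0.64 against -0.01 over all genes, and without Pcx L-/- replicate 1 the counts were again 6 and 0. They were the eIF2 alpha subunit Eif2s1, which is the substrate of the kinases (0.89, adjusted p = 0.00135), the beta subunit Eif2s2 (0.64, 0.00361), and the exchange factor subunits Eif2b2 (0.75, 0.00312), Eif2b3 (0.79, 0.00455), Eif2b4 (0.79, 0.0174) and Eif2b5 (0.45, 0.0307). Eif2s1 had 631 to 687 normalized counts in controls and 912 to 1379 in Pcx L-/- mice, replicate 1 being the lowest of the latter yet above all controls. Of 12 partners of the kinases and phosphatases, such as the GCN2 activator Gcn1l1 and the catalytic subunits Ppp1ca, Ppp1cb and Ppp1cc, none was called by edgeR. At an unadjusted p under 0.05 there were 1 higher and 1 lower, as there were by DESeq2. Without Pcx L-/- replicate 1 there were 2 higher, Hspa5 (1.21, adjusted p = 0.00496 by edgeR) and Impact (0.42, 0.0143), and 1 lower, Prkra (-0.52, 0.0137). With all mice Hspa5 had a log2 fold change of 0.97 (adjusted p = 0.0537 by edgeR). Without control replicate 4 there were 2 higher, and with library size alone 6 were higher. Of 10 eIF4F genes 3 were higher and none lower (edgeR, 0 lower also at an unadjusted p under 0.05 and by DESeq2), with Eif4g3, a scaffold paralog, at 0.90 (adjusted p = 0.00436) and the helicase Eif4a1 at 0.35 (0.0355) beside Eif4e. With library size alone 9 of the 10 were higher, and without Pcx L-/- replicate 1 there were 5.

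The list of mTORC1 and its upstream genes, which also holds the outputs Rps6kb1 and Rps6, was mixed. Of 36 genes tested 8 were higher and 5 lower, beside 14.1% and 13.5% of all genes. The median log2 fold change was 0.10. Leaving out Pcx L-/- replicate 1 gave 8 and 5 again, but the lower calls fell to 1 without Pcx L-/- replicate 2 or 4, to 2 without replicate 3, and to 3 without control replicate 1 or 3 or with the replicate block. The 3 highest among those called were Rragd, a Rag GTPase (0.96, adjusted p = 0.0351), the Ragulator subunit Lamtor3 (0.66, 0.0113) and the ribosomal protein Rps6 (0.62, 0.00680). The 3 lowest were Castor2, of the arginine sensor family (-0.78, 0.0208), the sestrin Sesn3 (-0.72, 0.0426) and Fnip2, a folliculin partner (-0.70, 0.00384). Tsc2 was not called (-0.47, adjusted p = 0.0731), nor was Sesn2, a leucine sensor that ATF4 induces (-0.27, 0.473). With library size alone 13 were higher and 1 was lower.

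Downstream of eIF2alpha phosphorylation, 13 of 19 tested genes of the ATF4 and CHOP axis were higher and none lower by edgeR. Over all genes the shares were 14.1% and 13.5%. With all mice, 0 were lower at an unadjusted p under 0.05 or by DESeq2. The median log2 fold change was 1.44. The 6 not called were Cebpb (-0.30), Chac1 (-0.43), Phgdh (0.05), Sesn2 (-0.27), Slc7a5 (0.17) and Ero1l (0.04). Without Pcx L-/- replicate 1 the calls were again 13 and 0, beside 16.7% and 17.8% of all genes. There 2 genes were lower at an unadjusted p under 0.05. The study itself reported on most of the called transcripts of this axis, so the count is not independent evidence of direction. It placed Fgf21 among transcripts putatively responsive to PPARalpha. The 3 highest were the stress cofactor Nupr1 (7.19, adjusted p = 1.59e-04), the serine synthesis enzyme Psat1 (4.48, 2.93e-05) and the hormone Fgf21 (4.23, 7.35e-04). The 3 lowest of those called were the amino acid transporter chain Slc3a2 (1.36, 1.22e-04), Atf4 (0.89, 0.0147) and its partner Cebpg (0.45, 0.0198). Pcx L-/- replicate 1 was the lowest of its genotype in 11 of these 13, as it was for Ppp1r15a and Eif2ak3. This was not particular to the axis. Of genes called higher, it was lowest in 6 of 6 on the eIF2 and eIF2B list and 5 of 8 on the mTORC1 list. On the interferon list it was lowest in 0 of 2. No such share was computed over all genes. Ddit3 (CHOP), which activates Ppp1r15a transcription in stressed cells, was chosen here after its values were seen. It stood at 69.3 to 114 normalized counts in controls and at 185, 801, 284 and 630 in Pcx L-/- replicates 1 to 4. The log2 fold change was 2.48 (SE 0.42, adjusted p = 0.00232 by edgeR). The order of the Pcx L-/- mice was that of Ppp1r15a, but this was not particular to Ddit3. Atf4, Trib3, Nupr1, Sgk1 and Hspa5 had the same order, while others such as Atf3 and Fgf21 did not. A link between Ddit3 and Ppp1r15a was not tested.

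The 3 response programmes known to act on single members were counted beside them. Of 18 interferon-response genes, the class to which Eif2ak2 belongs, 2 were higher and 6 lower, beside 14.1% and 13.5% of all genes. Among the called were Ifit1 (-1.11, adjusted p = 0.0252), Oasl1 (-1.07, 0.0150) and the RNA sensor Ifih1 (-0.60, 0.0129) as the 3 lowest, and the 2 higher genes were Oas2 (0.58, 0.0347) and the deconjugase Usp18 (0.43, 0.0211), all by edgeR. With library size alone 2 were higher and 2 lower, and without Pcx L-/- replicate 1 there were 1 and 8. The lower calls fell to 1 without Pcx L-/- replicate 4, to 2 without replicate 2 or 3, and to 3 without control replicate 2 or 3 or with the replicate block. The higher calls fell to 0 without control replicate 1, without Pcx L-/- replicate 2 or 4 and with the block (edgeR), and to 1 without Pcx L-/- replicate 3 and without control replicates 2 and 4 singly. Of 13 glucocorticoid-response genes 5 were higher and 3 lower, with Cdkn1a (2.16, 0.00437), Sgk1 (2.14, 0.00254) and Lcn2 (1.67, 0.00873) the highest and Fkbp5 (-0.91, 0.0163), Tsc22d3 (-0.78, 0.00838) and Errfi1 (-0.67, 0.0166) the lowest. The 3 lower calls fell to 1 without control replicate 3, without Pcx L-/- replicate 3 or 4, and by limma on either log2 FPKM scale. Of 12 hypoxia-response genes 1 was higher, the oxygen sensor Egln3 (1.20, 8.43e-04), and 2 were lower, Bnip3 (-1.21, 0.00814) and Pdk1 (-0.92, 0.00109). Without Pcx L-/- replicate 1 the counts of the glucocorticoid and hypoxia lists were the same. Ddit4 belongs to the latter 2 programmes by background and was itself not called.

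**Figure D4:**
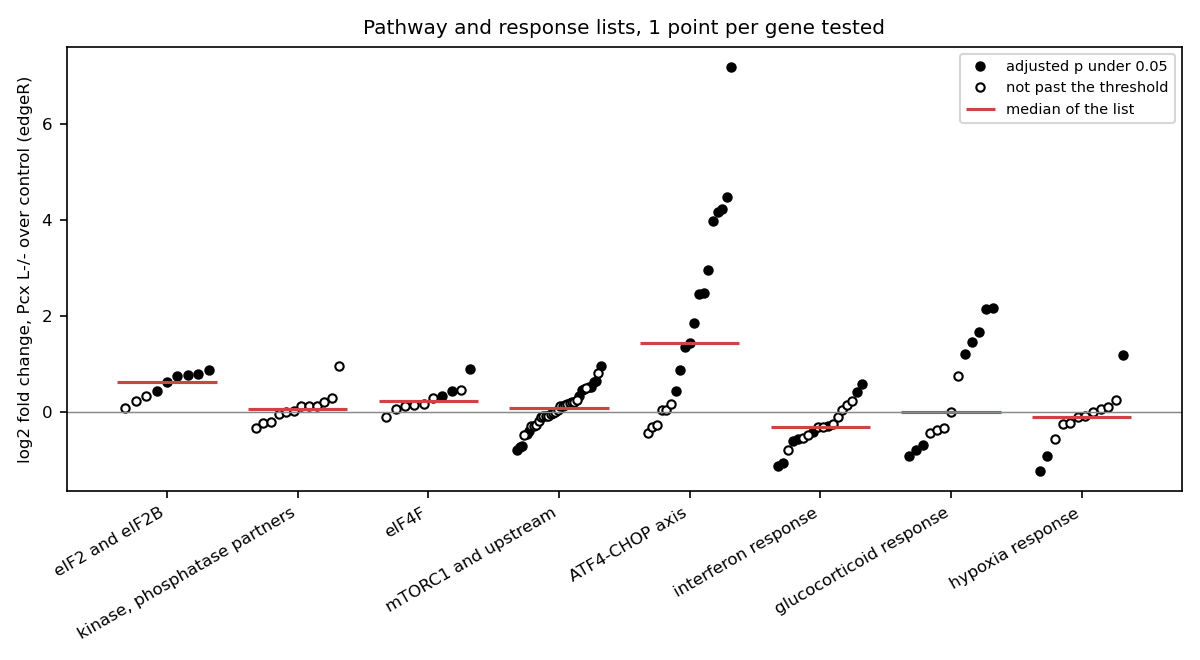
Log2 fold change of Pcx L-/- over control (vertical axis, edgeR under TMM) for every tested gene of 8 lists, filled where the adjusted p is under 0.05, with the median of each list as a line. The eIF2 and eIF2B list (median 0.64) and the ATF4 and CHOP list (median 1.44) hold no gene called lower, while the mTORC1 list holds 8 called higher and 5 lower, the latter only 1 without Pcx L-/- replicate 2 or 4.

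Genes whose pattern over the 8 mice was most like that of a called member were listed by the root mean square difference of log2(normalized count + 1), each relative to its control mean, among 10688 genes. For Ppp1r15a they were Clpx (0.14), Grb10 (0.17) and Pklr (0.18), and for Eif2ak3 Rock2 (0.09), St5 (0.10) and Xpr1 (0.11). For Eif4ebp1 they were 1810022K09Rik, Mrpl32 and Rpp25l (all 0.06), and for Eif4ebp2 Atp13a3 (0.05), Erbin (0.07) and Ppp2r5e (0.07). Btrc (0.08), Thra (0.10) and Hgsnat (0.10) were nearest to Eif2ak2, and Pcnp (0.07), Cyb5b (0.08) and Prpf39 (0.10) to Eif2ak4. Smaller values mean closer patterns, and Ppp1r15a, the member with the widest spread among Pcx L-/- mice, had the least close neighbours of the 6.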

How the data were processed

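The authors isolated total RNA from frozen liver, sent it out for library construction and sequencing, and aligned the reads to mm10 (GRCm38). For each Ensembl gene the authors deposited raw counts and FPKM. The submitters' processing notes name STAR 2.5, HTSeq 0.6.1 and DESeq2, without roles. The annotation release is not stated in these sources, nor is the use of strand. All of 142384 deposited FPKM values above 0 equal the count over 1 length per gene and the library total (relative tolerance 1e-06). Columns of the authors' own comparisons were not used.

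Symbols came from GENCODE M21 (97.8% of IDs matched), with 2 list genes matched by RefSeq synonyms. Counts were tested with edgeR 4.0.16 (R 4.3.3, TMM, filterByExpr with a minimum count of 10 and total of 15, genotype only, 6 residual degrees of freedom, biological coefficient of variation 0.181) and Benjamini-Hochberg adjustment over 13168 genes, at 0.05. Standard errors are approximate. Ratios of reads used a pseudocount of 0.5 and an exact permutation test. Steps were tested on simulated data. Alternatives were DESeq2 1.42.0 (the study's test), apeglm 1.24.0, limma 3.58.1 on log2(FPKM + 1) and log2(FPKM + 0.1), other scalings and filters, a replicate block, the mouse number series as a term or alone, and each mouse left out. Same-numbered replicates did not deviate together (r from -0.13 to 0.10), so the block stands only among the alternatives.

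Members and lists were chosen with earlier results of these data known. All members were named, and of each list every called gene up to 6, otherwise the 3 highest and 3 lowest called, plus pair partners and Sesn2. Genotypes came from the sample labels. Depth of 12016242 to 20023108 reads limits what can be said of Eif4ebp3.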

Additional observations from a re-analysis of the deposited data

Results flagged for a closer look

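In the Pcx L-/- group, Eif2ak1 was highest in replicate 1, at 875.7 normalized counts against 784 to 799 in the other 3 mice, and the gap took 0.833 of the group's range. Ppp1r15b was highest of the controls in replicate 4, at 3023 normalized counts against 2383 to 2483, with a gap of 0.844 of the range. Both exceed Dixon's 95% critical value for groups of 4. In all 36 groups of 4 values were examined, and chance gives about 1 such value in 20.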

How the results depend on the processing

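Fold changes of the 10 genes and the counts of calls were recomputed under 20 alternatives, and the 8 read ratios under 10. FPKM shares, marker sums and nearest patterns were not. Of the 20, the fit on the higher run of mouse numbers was chosen after seeing the data. Under library size only, limma on log2(FPKM + 1) and limma on log2(FPKM + 0.1), genes called higher numbered 3915, 3822 and 3779 and genes called lower 870, 823 and 822, against 1855 and 1777, and 0 members were called lower by edgeR or limma. Under the same 3 settings the log2 fold change reversed for Eif2ak1 (0.16, 0.15 and 0.16) and Ddit4 (0.038, 0.13 and 0.14), and calls were lost for Eif2ak2 (-0.15, -0.12 and -0.14), Eif2ak4 (-0.11, -0.073 and -0.10) and Eif4ebp2 (-0.20 in all 3). By construction these settings lack TMM's centring. Eif2ak4 also lost its call under upper quartile scaling (-0.36) and with no filter on low counts (-0.39). Ppp1r15b was called lower by DESeq2 (-0.36, and -0.33 with apeglm) and in the higher run alone (-0.53), where Eif2ak2 (-0.43) and Eif2ak4 (-0.44) were not called. With the mouse number series as a term Eif2ak2 (-0.41) and Ppp1r15a (0.73) lost their calls. With the replicate number as a block, a number that same-numbered mice merely share, Eif2ak2 (-0.43) and Eif2ak4 (-0.40) lost theirs and 1 member, Eif4ebp2, remained called lower. The cause of these losses was not tested.

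With each mouse left out in turn, genes called higher ranged from 1156 to 2232 and lower from 953 to 2370, and members called higher or lower from 0 to 3. Members higher fell to 0 without control replicate 3 and without Pcx L-/- replicates 2 and 4 singly, and to 1 without control replicate 1 or 2. Members lower fell to 0 without Pcx L-/- replicate 4, and to 1 without control replicates 2 and 4 and Pcx L-/- replicates 2 and 3 singly. The log2 fold changes then ranged from -0.55 to -0.36 for Eif2ak2, 0.45 to 0.74 for Eif2ak3, -0.50 to -0.34 for Eif2ak4, 0.69 to 1.21 for Ppp1r15a, -0.44 to -0.27 for Ppp1r15b, 0.37 to 0.57 for Eif4ebp1, -0.55 to -0.42 for Eif4ebp2 and -0.58 to 0.17 for Ddit4, the last reversed without control replicate 4. The difference in log2 ratio then ranged from 0.79 to 1.11 for Eif4ebp1 to Eif4ebp2 and from 0.83 to 1.08 for Eif2ak3 to Eif2ak4. No p-value was computed for ratios with a mouse left out. Few reads limit Eif4ebp3.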
